A study of Homo sapiens with 2 samples.

Results

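The inhibitors of cyclin-dependent kinases (CDKs) of the CIP/KIP and INK4 families, together with CDKN3, were followed in AGS cells in which galectin-3 had been silenced. All probe sets that the platform annotation assigns to CDKN1A, CDKN1B, CDKN1C, CDKN2A, CDKN2B, CDKN2C, CDKN2D and CDKN3 were taken, which gave 16 probe sets for 7 of the 8 genes, out of 54675 probe sets and 19775 named genes in the series. CDKN2C has no probe set named in the annotation table and was not analysed here. AGS is a human epithelial line derived from a gastric adenocarcinoma, and galectin-3, the product of LGALS3, is a beta-galactoside-binding lectin found inside and outside cells. The series holds 1 array of cells treated with a small interfering RNA against galectin-3 and 1 array of control cells, on single-colour Affymetrix arrays summarised as MAS5 signals on a linear scale. The treatment of the control cells and the length of silencing are not given in the labels. Since each group has a single array, the spread between replicates is unknown, differences are given as sizes without a test, and this number of arrays limits their precision.

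CDK inhibitors are small proteins that hold back the cell cycle by binding CDKs or CDK-cyclin pairs. The CIP/KIP proteins p21 (CDKN1A), p27 (CDKN1B) and p57 (CDKN1C) bind CDK2 complexes with cyclins E and A and also CDK4/6 complexes, whereas the INK4 proteins p16 (CDKN2A), p15 (CDKN2B), p18 (CDKN2C) and p19 (CDKN2D) bind CDK4 and CDK6 and keep them from D-type cyclins. When these kinases are inhibited, RB stays bound to E2F and entry into S phase is delayed. CDKN3 belongs to neither family despite its symbol: it is a phosphatase that removes the activating phosphate from CDK2 and is itself made mostly by cycling cells. CDKN2B is a target of TGF-beta signalling, CDKN1C is an imprinted gene, and p27 is controlled to a large part by protein degradation, which an array does not measure.

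The promoter sequences of the measured members that the RefSeq promoter table holds (4 of 5, GRCh38.p14) are shown because these genes differed in direction. Each line gives the 250 bases before the start site, 5′ to 3′ on the gene's strand, with motif matches in capitals. CDKN1A lies at chr6:36678464-36678713 on the plus strand, CDKN2B at chr9:22009306-22009555 on the minus strand, CDKN1B at chr12:12717118-12717367 on the plus strand and CDKN3 at chr14:54396757-54397006 on the plus strand. CDKN1C is the other measured member.
CDKN1A: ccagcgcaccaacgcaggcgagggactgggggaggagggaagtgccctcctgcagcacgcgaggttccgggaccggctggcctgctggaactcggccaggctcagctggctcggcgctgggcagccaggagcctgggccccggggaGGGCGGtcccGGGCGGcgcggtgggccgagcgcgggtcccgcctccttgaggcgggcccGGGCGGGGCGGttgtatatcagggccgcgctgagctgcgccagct
CDKN2B: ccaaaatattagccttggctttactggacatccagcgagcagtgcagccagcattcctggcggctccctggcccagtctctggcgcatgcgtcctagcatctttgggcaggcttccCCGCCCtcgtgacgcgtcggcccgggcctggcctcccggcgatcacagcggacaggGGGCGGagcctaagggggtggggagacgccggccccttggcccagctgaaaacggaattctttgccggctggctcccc
CDKN1B: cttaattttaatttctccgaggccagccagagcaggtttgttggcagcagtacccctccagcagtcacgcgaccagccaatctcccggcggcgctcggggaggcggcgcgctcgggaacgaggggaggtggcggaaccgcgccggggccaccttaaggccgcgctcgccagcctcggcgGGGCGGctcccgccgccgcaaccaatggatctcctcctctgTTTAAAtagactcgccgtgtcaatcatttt
CDKN3: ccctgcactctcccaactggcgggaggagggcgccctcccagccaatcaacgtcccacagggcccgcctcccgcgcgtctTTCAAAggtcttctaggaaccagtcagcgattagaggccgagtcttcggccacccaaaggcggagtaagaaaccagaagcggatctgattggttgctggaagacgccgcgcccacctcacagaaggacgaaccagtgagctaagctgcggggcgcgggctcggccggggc

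The motifs searched on both strands, over windows of 300 bases that run on 50 bases past the start site, were GGGCGG (the GC box bound by SP1 and SP3), TTTGAA and TTTAAA (the cell cycle gene homology region found in many mitotic genes), TTTGGCG and TTTCCCG (E2F), CACGTG (the E-box) and TATAAA (the TATA box). CDKN1A held GGGCGG 4 times, at -104, -94, -45 and -40 counted by the first base of the match, the last pair sharing 1 base. CDKN2B held it 2 times, at -134 on the opposite strand and at -78, and CDKN1B held it 1 time, at -71. This motif is common, being present in 45.0% of 35116 promoter windows of the same length. CDKN3 held no GGGCGG and had 1 match to TTTGAA, on the opposite strand at -170, a motif present in 15.2% of windows. CDKN1B also held TTTAAA at -30, present in 12.2% of windows. The other 4 motifs had no match in these 4 windows, and they were present in 1.92% of all windows for TTTGGCG, 4.29% for TTTCCCG, 7.26% for CACGTG and 11.5% for TATAAA. A match describes these letters only.

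LGALS3 itself had a signal of 2699.8 on the silenced array and 20206 on the control array, a log2 ratio of -2.90 (silenced over control, as throughout), so the silenced array matched its label. A background floor was set on each array from probe sets for olfactory receptors, at 109.5 on the silenced array and 138.4 on the control array, and a gene counted as measured where its signal was above the floor on at least 1 array. In all 10514 genes were measured. Of the epithelial markers 8 of 10 were measured, with log2 ratios from 0.04 to 1.08, and CLDN3 and TFF1 were under the floor. Of 9 leukocyte markers on the array 1 was measured, LYZ, with a log2 ratio of 0.09. Its signals were high, at 27269.8 in silenced cells and 25668.3 in control cells. Of 10 fibroblast markers 4 were measured. These were COL1A1 with signals of 1502 in silenced cells and 816.3 in control cells, VIM with a log2 ratio of 0.12, ACTA2 with -0.32, and THY1 with no direction, while COL1A2, COL3A1, DCN, LUM, PDGFRB and FAP were under the floor. The other COL1A1 probe sets gave log2 ratios of 0.53 and -0.55. Bulk signals cannot tell less RNA per cell from fewer cells that hold it.

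Of the 8 genes, 5 were measured, and they split in direction. CDKN2B, CDKN1C and CDKN1A were higher on the silenced array and CDKN3 and CDKN1B were lower. By a rule of size of 2-fold, 2 of the 5 genes were higher and 0 were lower, beside 3.31% and 3.07% of all measured genes. At 1.5-fold the counts were 3 higher and 1 lower, beside 10.6% and 10.4% of all measured genes. The median log2 ratio of the 5 genes was 0.87, against -0.02 over all measured genes, and with 5 genes this median is the value of CDKN1A. It turned to -0.22 without a floor, -0.10 with 50 added to each signal and -0.18 with the median over the probe sets of each gene, settings that also count genes near background. Over all genes 51.9% of those past 2-fold were higher, a share that was 75.9% with the hybridization controls set equal and 22.7% with the poly-A controls set equal. Those scalings moved the median of all genes to 0.17 and -0.25.

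**Figure D1:**
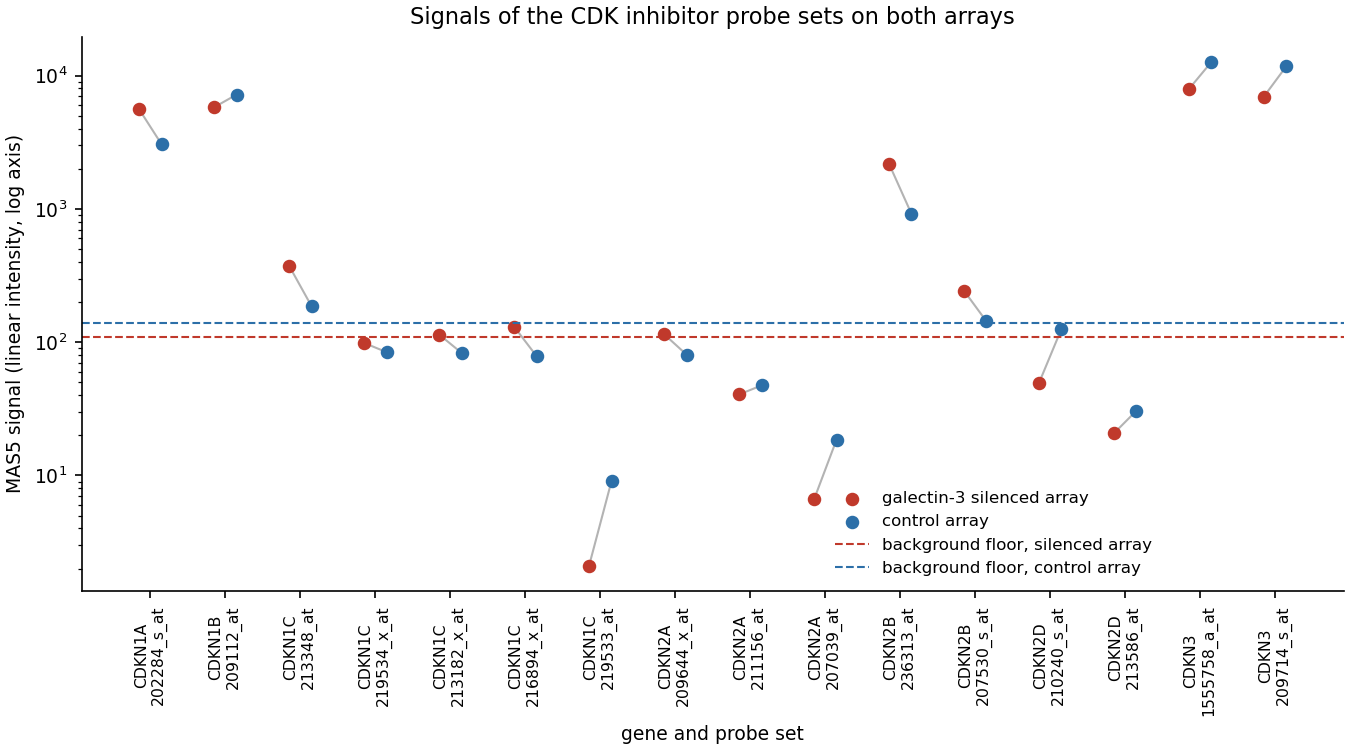
MAS5 signal (linear intensity on a log axis) of the 16 probe sets of the 7 annotated genes, on the silenced array (red, left of each pair) and the control array (blue, right), with each array's background floor as a dashed line. CDKN1A, CDKN1B, CDKN3 and the brighter CDKN2B probe set stand well above both floors, whereas 6 probe sets lie under the floor on both arrays.

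Among the CIP/KIP genes, CDKN1A had a signal of 5578.5 in silenced cells and 3043.5 in control cells. Its transcript signal was thus 1.83-fold higher, a log2 ratio of 0.87 that stopped short of 2-fold. The ratio ranked 476th from the highest of the 10514 measured genes. Among the 500 genes nearest to it in signal 17 (3.40%) had a ratio at least as high, and 95% of those 500 lay between -1.09 and 0.99. CDKN1A was read by a single named probe set, so no other probe set on the array repeats its value.

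CDKN1B, which encodes p27, had a signal of 5784.8 in silenced cells and 7202.4 in control cells. Its log2 ratio of -0.32 was the size of the spread between probe sets of the same gene. That spread had an SD of 0.32 over the 4728 genes read by more than 1 probe set above both floors. It compares probe sets on the same 2 arrays and holds no spread between cultures or replicate arrays. Among the 500 genes nearest in signal 86 (17.2%) were at least as low, so CDKN1B did not stand apart from genes of like signal. The distance between CDKN1A and CDKN1B was 1.19 on the log2 scale, a difference that no constant rescaling of either array can alter.

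CDKN1C, which encodes p57, was near background. Its brightest probe set had a signal of 373.5 in silenced cells and 185.5 in control cells, the control value being 1.34 times the floor. The log2 ratio was 1.01, or 2.01-fold, at the edge of the 2-fold rule, and 23 of the 500 genes nearest in signal (4.60%) were at least as high. Of the other 4 probe sets 3 are of the _x_at kind, which can bind related sequences. These 3 had signals from 98.6 to 130.7 in silenced cells and from 78.5 to 84.1 in control cells, so all were higher in the silenced cells, but all were under the control floor and give no fold. The remaining probe set was close to 0, with signals of 2.1 and 9.1 in silenced and control cells, far below both floors.

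Among the INK4 genes, CDKN2B, which encodes p15, had the highest ratio of the 5 measured members. Its brighter probe set had a signal of 2179.8 in silenced cells and 917.1 in control cells, a log2 ratio of 1.25 or 2.38-fold. It ranked 181st from the highest of all measured genes, and 8 of the 500 genes nearest in signal (1.60%) were at least as high. The other CDKN2B probe set went the same way by less, with signals of 243.2 in silenced cells and 143.1 in control cells and a log2 ratio of 0.77. That control value was 1.03 times the floor. CDKN2B therefore exceeded 2-fold on 1 of its 2 probe sets and 1.5-fold on both.

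CDKN2A, which shares its locus with CDKN2B and gives rise to both p16 and the ARF protein, was not measured. Its 3 probe sets had signals of 114.8, 40.5 and 6.6 in silenced cells and 80.6, 47.3 and 18.5 in control cells. The first of these, an _x_at probe set, was 1.05 times the floor on the silenced array only, and the others were under it on both arrays. CDKN2D had signals of 49.3 and 20.7 in silenced cells, against 125.6 and 30.6 in control cells, all under the floors, so no ratio is given for it. The antisense transcripts of this locus were also under the floors, CDKN2B-AS1 with signals of 1.2 in silenced and 5.5 in control cells and CDKN2A-AS1 with 18.3 in silenced and 14.7 in control cells. Of the 3 annotated INK4 genes CDKN2B alone was above the floor on both arrays.

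CDKN3, the CDK2 phosphatase, was lower in silenced cells on both of its probe sets. Their signals were 7926.7 and 6954.9 in silenced cells, against 12654.7 and 11765 in control cells. The log2 ratios were -0.67 and -0.76, differing by less than the spread between probe sets of a gene, and correspond to 62.6% and 59.1% of the control signal. Among the 500 genes nearest in signal 34 (6.80%) were at least as low. CDKN2B and CDKN3, at the ends of the order, lay 1.92 apart on the log2 scale.

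**Figure D2:**
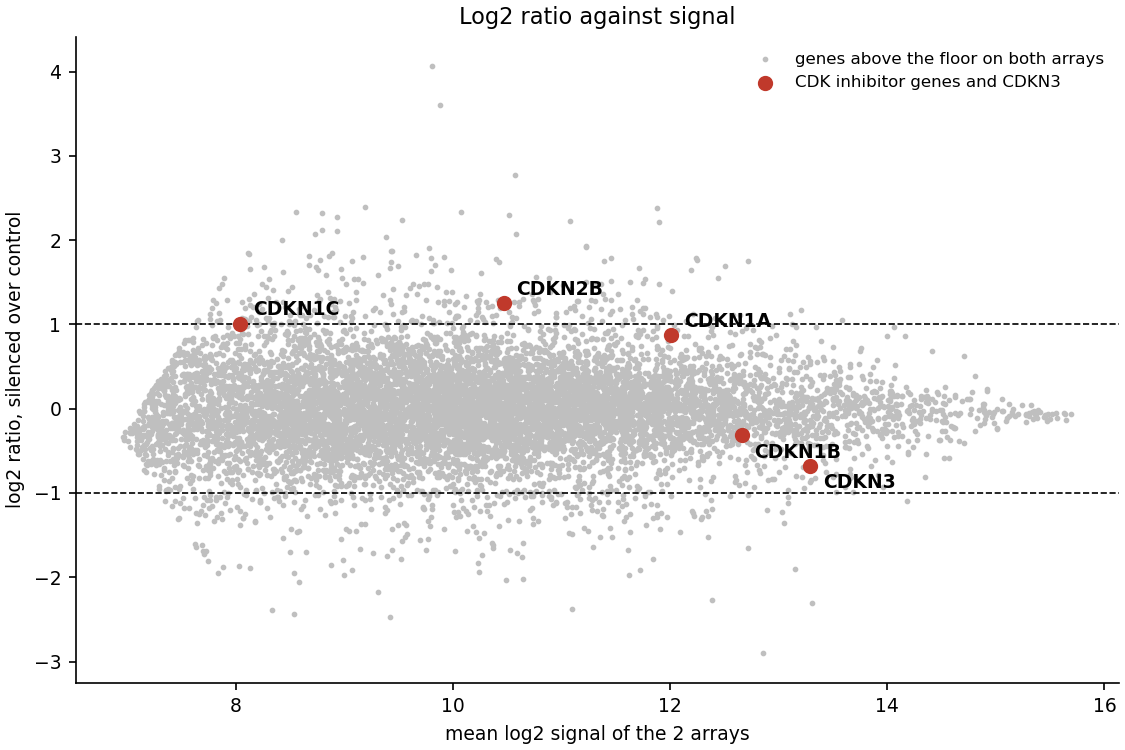
Log2 ratio of silenced over control signal (vertical) against the mean log2 signal of both arrays (horizontal) for each gene above the floor on both arrays (grey), with the 5 measured members in red and 2-fold as dashed lines. CDKN2B at 1.25 and CDKN1C at 1.01 lie above the upper line, CDKN1A at 0.87 just under it, and CDKN1B at -0.32 and CDKN3 at -0.67 lie below 0 inside the lines.

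The directions of 4 of the 5 members were the same under the 11 alternative ways of processing that gave them a value. CDKN2B stayed at least 2-fold higher under all 11 alternatives, with log2 ratios from 1.01 to 1.43. Part of this was fixed in advance. A change of the floor alone leaves bright genes as they are, so CDKN2B kept 1.25 there and without _s_at and _x_at probe sets. No alternative read its fainter probe set alone, which gave 0.77. CDKN1A and CDKN1B, each read by 1 probe set, could not move under the median of probe sets. CDKN1A stayed between 0.64 and 1.06 under the 10 alternatives that kept its _s_at probe set, passing 2-fold with the hybridization controls set equal. The ends of this range come from the control-based scalings, which shift every gene alike. Relative to the median of all genes, CDKN2B was 1.26, CDKN1C 1.02, CDKN1A 0.89, CDKN1B -0.30 and CDKN3 -0.66, values that such a scaling leaves as they are by construction. CDKN3 ran from -0.91 to -0.49 and CDKN1B from -0.55 to -0.14, both below 0 under all 11. CDKN1C was past 2-fold under 6 of 11 alternatives, was 0.43 with a floor 2 times higher, and was -0.082 with the median of its probe sets. In that last value both _x_at probe sets that count were raised to the control floor, which is the higher of the floors.

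**Figure D3:**
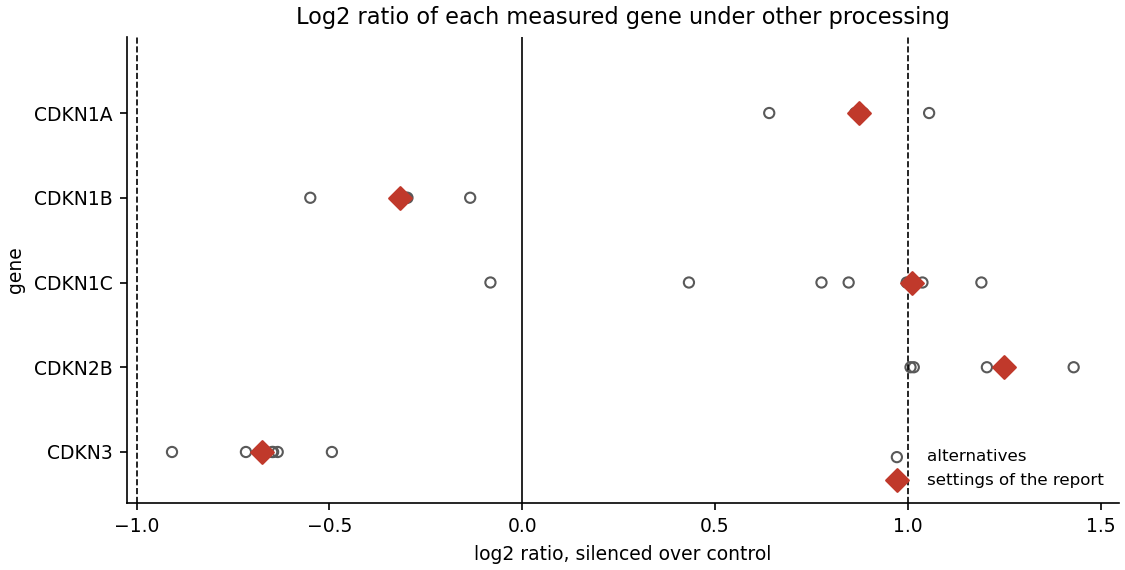
Log2 ratio of silenced over control for each measured gene (rows), with the value of the report as a red diamond, the alternatives as open circles and 2-fold as dashed lines. CDKN2B stays to the right of 1, CDKN1A between 0.64 and 1.06, CDKN1B and CDKN3 stay below 0, and CDKN1C spreads from -0.082 to 1.19.

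In a list of kinases and cyclins drawn up around the inhibitors, 7 of 14 measured genes were above 0 and 7 below it, with a median log2 ratio of 0.03. The list also holds CDK7, CCNH and MNAT1 of the CDK-activating kinase, which are not themselves targets of the inhibitors. Their log2 ratios, 0.56, 0.28 and 0.15, were all above 0, so the even split and the median rest in part on them. Past 2-fold there was 1 higher gene and there were 2 lower genes, beside 3.31% higher and 3.07% lower of all measured genes. The D-type cyclin CCND3, a partner of CDK4 and CDK6, had a signal of 5311.9 in silenced cells and 1881.1 in control cells, 2.82-fold higher. The B-type cyclin CCNB2 and the A-type cyclin CCNA2 were 2.33-fold and 2.10-fold lower. The kinases themselves, named here for their role and after their values were seen, had log2 ratios of 0.09 for CDK4, -0.35 for CDK6, -0.04 for CDK2 and -0.93 for CDK1. The targets of INK4 proteins thus differed by much less than CDKN2B did. The G1 cyclin CCND1, also named after its value was seen, had a log2 ratio of -0.89 on one probe set and -0.43 on the other.

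Downstream, in the RB and E2F families, 10 of 13 measured genes had a ratio under 0, beside 5401 of all 10514 measured genes. The median of the 13 was -0.36. At 2-fold, 2 were lower and 0 were higher, beside 3.07% and 3.31% of all measured genes. The repressor E2Fs E2F7 and E2F8 were 2.08-fold and 2.01-fold lower, while the fainter E2F7 probe set gave -0.29 on the log2 scale. TFDP2 counted below 0 at -0.74, though its other probe sets gave 0.15 and 0.32. TFDP1 counted below 0 at -0.23, with -0.44 and 0.63 on its other probe sets. Both were named after their values were seen. Mitotic genes of the kind with which CDKN3 is made were lower throughout the list. Among the 20, 18 passed 2-fold downwards and 0 upwards, with a median log2 ratio of -1.26 and a range from -2.03 to -0.83. PLK1, a mitotic kinase, had the lowest ratio of the list at 4.08-fold lower, followed by DLGAP5, which acts on the spindle, at 3.94-fold, KIF20A, a kinesin of cytokinesis, at 3.28-fold, and CDC25C, the phosphatase that activates CDK1, at 3.17-fold. CDKN3, at -0.67, was less low than each of the 20. The part of a shift in cell cycle phase in the CDKN3 value was not tested.

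Genes that set the level of the inhibitors were also examined. Of 17 measured genes of protein turnover, among them the ubiquitin ligase subunits that mark p27 and p21 for degradation, 1 was at least 2-fold lower and 0 were higher, with a median of -0.05. That gene was CDC20, an activator of the anaphase-promoting complex, at 2.35-fold lower. Of the 17 genes 7 were above 0 and 10 below it. SKP2, which acts on p27, counted with a log2 ratio of -0.06, though its other probe sets gave -0.83 and -2.08. CKS1B had a log2 ratio of -0.78. Both were named after their values were seen. Of 26 measured transcription factors that act on the inhibitor genes 1 passed 2-fold upwards and 2 passed it downwards, with a median of 0.06. Over all measured genes 3.31% passed it upwards and 3.07% downwards, shares to set beside the turnover and transcription factor lists. ID3 and ID1, inhibitors of basic helix-loop-helix factors and known as repressors of CDK inhibitor genes, were 5.18-fold and 3.74-fold lower. The ID1 signal was 4699.9 in silenced cells and 17577 in control cells. MXD1, an antagonist of MYC, was 2.93-fold higher, its fainter probe set giving a log2 ratio of 0.85.

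Of 16 measured Polycomb and DNA methylation genes, which keep the INK4 locus silent in many cells, 1 was at least 2-fold lower and 0 were higher. Their median was -0.19, and over all measured genes 3.07% were at least 2-fold lower and 3.31% higher. The DNA methyltransferase DNMT3B was 2.28-fold lower, with signals of 562.3 in silenced cells and 1280.3 in control cells. The Polycomb methyltransferase EZH2, named after its value was seen, had a log2 ratio of -0.33.

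Of 10 measured genes of TGF-beta signalling and response 1 was at least 2-fold higher, TGFBI, a secreted matrix protein, with a signal of 695.5 in silenced cells and 97.6 in control cells, under the control floor, and so at least 5.03-fold higher. Over all measured genes the share at least 2-fold higher was 3.31%. The median of these 10 TGF-beta genes was 0.00, with 5 ratios above 0 and 5 below it. Among the others, named after their values were seen, the pseudoreceptor BAMBI had a log2 ratio of 0.72, CCN2 0.48, the feedback inhibitor SMAD7 -0.10 and the receptor TGFBR1 -0.80.

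Genes next to the members in the genome were also read. Of 25 such genes 24 lie within 1 Mb of a member in the RefSeq table, and for the other, SLC22A18, no distance was obtained. Of the 25 genes 14 were measured. On the probe set that stood for each gene 0 of 14 were 2-fold higher or lower, beside 3.31% and 3.07% of all measured genes, with ratios from -0.87 to 0.37 and a median of -0.08. The largest were GMFB, near CDKN3, at -0.87 and the splicing factor SRSF3, near CDKN1A, at -0.54. Some other probe sets of these genes were past 2-fold lower, with log2 ratios of -1.42 for GMFB and -1.30 for CNIH1, near CDKN3, whose main probe set gave 0.04. One of the other SRSF3 probe sets was also past it, with a signal of 526.9 in silenced cells and 1493.7 in control cells. GMFB and CDKN3 were thus both lower, whereas SRSF3 was lower and CDKN1A higher. MTAP, which adjoins CDKN2A and CDKN2B, had a log2 ratio of -0.19 with signals of 1321.7 in silenced cells and 1504.1 in control cells. PHLDA2, in the imprinted domain of CDKN1C, had a log2 ratio of 0.37. Both were named after their values were seen.

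Genes linked to senescence, a lasting arrest kept up by p16 and p21, were undetected in 8 of 17 cases on the array. Among the 9 measured, 2 passed 2-fold downwards and 0 upwards, beside 3.07% and 3.31% of all measured genes, with a median of -0.63. The list joins genes that fall in senescence, such as LMNB1, with secreted factors that rise in it. This count and median thus give no direction for senescence, which was not tested. LMNB1, the lamin whose loss marks senescent cells, was 2.31-fold lower and the IGF-binding protein IGFBP5 2.90-fold lower. The secreted factors IL6, IL1B, CXCL8, CCL2, CCL20, GDF15, IGFBP3 and IGFBP7 were under the floor on both arrays. CXCL1 had a log2 ratio of 0.58 and IL1A one of 0.07, both named after their values were seen. Their control signals, 151.5 and 162.5, were close to the control floor of 138.4. LMNB1, like the mitotic genes, is also expressed with the cell cycle.

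**Figure D4:**
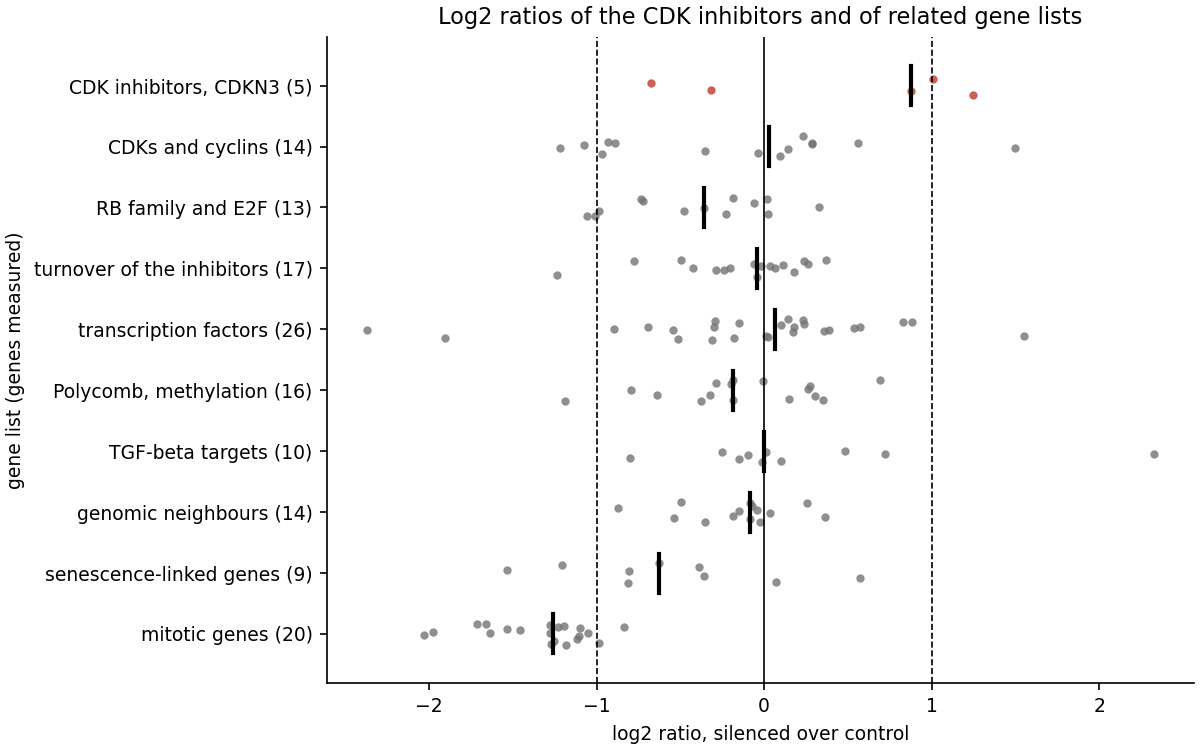
Log2 ratio of silenced over control for each measured gene of the CDK inhibitors with CDKN3 (red) and of 9 related lists (grey), with the number of genes measured in brackets, the list median as a black bar and 2-fold as dashed lines. The CDK inhibitor genes have a median of 0.87, which turns below 0 under 3 alternatives, and split on both sides of 0, whereas the mitotic genes, with a median of -1.26, all lie below 0.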

How the data were processed

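RNA was extracted with Trizol, labelled with biotin and hybridised to Affymetrix arrays, per the labels' protocols. The authors deposited intensity values on a linear scale made with MAS5, per the submitters' processing notes; in the sources used here neither its version nor its scaling target is given. Both arrays have a 2% trimmed mean near 500.1, so the deposited scaling was kept. Arrays were grouped by title, 1 per group.

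Probe sets were named from the platform annotation, which lists 42898 of 54675; 41097 carry 1 symbol and 1801 several, and those with several or none were not used. The floor was the 95th percentile of 135 olfactory receptor probe sets on each array, which left 22939 probe sets (42.0%) above it on the silenced array and 21010 (38.4%) on the control array. Signals under it were raised to it for every gene-level ratio, and so for the ranks, fold counts, ranges and medians. Each gene was read from the brightest of its probe sets by mean log2 signal, with _x_at sets used only where there was no other. Ratios are log2 of silenced over control. Genes of a list are named when they passed 2-fold with the largest ratios, up to 4, or the 2 largest where none passed; others are marked. Related genes were described in 9 lists, and 1 other list is not reported here. The members, the lists and the rules were chosen with earlier results of these data known. Alternatives changed the floor, an offset of 50, the scaling (lowess span 0.3) and the probe set rule. The calculation was tested on simulated data, with effects larger than the members' ratios and in bright genes only. That test does not cover smaller ratios or faint genes such as CDKN1C. Work used Python 3.11.15, pandas 2.3.3, numpy 2.4.6 and statsmodels 0.14.6.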

Additional observations from a re-analysis of the deposited data

How the results depend on the processing

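No paired analysis was possible because each group has 1 array, and for the same reason no array could be left out. The count of genes at least 2-fold higher, 2 of 5, was 1 with a floor 2 times higher, with 50 added to each signal, with quantile normalization (CDKN1C then at 0.997), with the poly-A controls set equal and with the median over the probe sets of each gene, and in each of these CDKN2B was past 2-fold and CDKN1C was not. The count at least 2-fold lower, 0, was 1 without a floor, where CDKN2D, under both floors, had a log2 ratio of -1.35, and it was 1 at 1.5-fold, where CDKN3 passed. The median log2 ratio, 0.87, was -0.22 without a floor, 0.28 with the array median as the floor, 0.43 with the floor 2 times higher, -0.10 with 50 added, -0.18 with the median over the probe sets of each gene and 0.35 without _s_at and _x_at probe sets. These settings changed which genes counted as measured, from 4 to 7, except for the higher floor, which lowered CDKN1C alone. CDKN1C turned to -0.082 with the median of its probe sets. Of 54 values for single genes under the alternatives, 52 moved by less than 0.32, the SD between probe sets of a gene. This was largely set in advance and does not measure the error of the ratios. A change of the floor leaves bright genes as they are. The control-based scalings shift every gene by a constant, set by control medians of -0.18 and 0.23. Over all genes 348 higher and 323 lower became 2470 and 2460 without a floor, 576 and 183 with the hybridization controls set equal, and 186 and 633 with the poly-A controls set equal. Signals near the floor, as in CDKN1C and the fainter CDKN2B probe set, limit what can be read.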

Other observations

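SKP2, the F-box protein that marks p27 for degradation, gave unlike values on its 3 probe sets. The brightest by mean log2 signal that is not of the _x_at kind had 1013.1 in silenced cells and 1057.2 in control cells, a log2 ratio of -0.06. The other probe sets had 1266 in silenced cells and 2251.4 in control cells, a log2 ratio of -0.83, and 208.7 in silenced cells and 884.9 in control cells, a log2 ratio of -2.08. KLF6, a zinc finger factor known to act on CDKN1A, had log2 ratios of 0.88, 0.93, 1.09 and 0.94. These came from the 4 of its 5 probe sets that were above the floor on both arrays. SP1, which binds GC boxes, had log2 ratios of -0.51, -0.57, -0.78 and -1.05, all lower in silenced cells. SKP2, KLF6 and SP1 were singled out after their values were seen, and any part of theirs in the values of the CDK inhibitors was not tested.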
